A study of Mus musculus with 2 samples.

Results

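The S100 genes encode small calcium-binding proteins, and 10 of them were followed here through the exit of mouse embryonic stem (ES) cells from self-renewal: S100a1, S100a3, S100a4, S100a5, S100a6, S100a10, S100a11, S100a13, S100a14 and S100a16. They were taken by symbol from the array annotation, which names 22485 genes in all, and all 10 listed symbols were found, on 13 array features. The family was selected on its log2 ratios of treated over untreated RNA on these arrays, already known, so those ratios are given as a description and carry no test. Total RNA was hybridised to dual-colour Agilent arrays, 1 for wild-type V6.5 cells and 1 for Utx knockout cells, a line the labels also give under the V6.5 name. Utx, the product of the X-linked gene Kdm6a, is a demethylase of the repressive histone mark H3K27me3. Kdm6a itself had ratios of -0.39 and -0.16, which compare treated with untreated cells of the same line and so do not check the knockout. In each line, untreated cells grown on gelatin with leukaemia inhibitory factor (LIF) were compared with cells kept for 48 h without LIF and with 100 nM retinoic acid (RA), the untreated RNA carrying Cy3 and the treated RNA Cy5. LIF withdrawal and RA came together in both lines and cannot be told apart, and how many clones the knockout line represents is not given in the sources used here. Values are log2 ratios, read as treated over untreated. That direction is the likely one from the dyes, and the log base was inferred from the range of the values.

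There was 1 array per line, so neither a line's ratio nor the gap between lines was replicated. The nearest measure of technical spread is that between features of the same gene on the same array, whose SD had a median of 0.14 on the V6.5 array and 0.14 on the knockout array for genes with 2 to 9 features. Signal intensities were not used here, so a ratio does not say how strongly a gene was expressed, and whether the cells held the defining markers of ES cells at a given level was not analysed here. In bulk RNA, fewer cells of a type and less RNA per cell cannot be told apart. A 2-fold change is a log2 ratio of 1 or -1.

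S100 proteins fold around a pair of EF-hands, helix-loop-helix motifs that hold calcium. Most work as dimers, which open on binding calcium and then grip a target such as an annexin, a cytoskeletal protein or an enzyme. Most of the mouse genes lie in a run on chromosome 3, interrupted by genes of the skin barrier. S100a4 is best known as a marker of fibroblasts and of motile, mesenchymal cells, S100a6 of proliferating cells, and S100a14 of epithelia.

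In V6.5 cells, 4 of the 10 genes were at least 2-fold lower after treatment (S100a4, S100a10, S100a6 and S100a14; 1.59% of all genes) and 0 were at least 2-fold higher (2.52% of all genes). In the knockout, S100a4 was lower still, S100a6 was lower by about the same amount as in V6.5, and the other 8 genes were within 2-fold, so that 2 were at least 2-fold lower (1.65% of all genes) and 0 higher (2.92%). S100a16 had ratios above 0 on both arrays. The shares of all genes stand beside these counts for scale only, since the members were proposed with the same ratios known. S100a14 in V6.5 cells and S100a6 in knockout cells were so close to 2-fold that each fell short of it once arrays were centred on their medians, as S100a6 also did with knockout ratios divided by the slope between the arrays.

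Starts of transcription show how the run is laid out, and 3 windows are given first for the adjacent genes S100a4, S100a5 and S100a6, because the outer pair had ratios of -1 or lower in V6.5 cells and the middle gene did not. All windows are from RefSeq (GRCm38.p6), reach from 250 bases before to 50 bases after a gene's start, and are written 5′ to 3′. Capitals mark the letters of motifs searched on both strands: TATAAA (the TATA box), GGGCGG (the GC box), TGANTCA (AP-1) and AGGTCA, the hexamer recognised by retinoic acid receptors.
S100a4, chr3:90603520-90603819, plus strand: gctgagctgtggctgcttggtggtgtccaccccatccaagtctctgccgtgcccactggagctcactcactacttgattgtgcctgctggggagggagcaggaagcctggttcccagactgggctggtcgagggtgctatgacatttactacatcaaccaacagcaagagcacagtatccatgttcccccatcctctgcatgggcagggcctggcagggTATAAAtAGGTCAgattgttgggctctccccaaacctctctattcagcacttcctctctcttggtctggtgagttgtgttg
S100a5, chr3:90608272-90608571, plus strand: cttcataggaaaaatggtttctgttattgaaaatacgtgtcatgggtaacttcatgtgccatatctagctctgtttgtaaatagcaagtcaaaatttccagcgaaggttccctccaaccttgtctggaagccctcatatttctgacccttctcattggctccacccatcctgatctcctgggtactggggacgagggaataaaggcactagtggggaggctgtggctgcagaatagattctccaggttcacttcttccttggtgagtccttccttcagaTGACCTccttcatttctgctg
S100a6, chr3:90612644-90612943, plus strand: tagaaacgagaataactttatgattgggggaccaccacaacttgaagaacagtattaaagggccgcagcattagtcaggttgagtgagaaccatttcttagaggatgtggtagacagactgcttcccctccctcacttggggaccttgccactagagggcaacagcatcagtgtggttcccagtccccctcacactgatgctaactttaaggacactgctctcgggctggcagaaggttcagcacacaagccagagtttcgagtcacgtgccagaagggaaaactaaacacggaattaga
The S100a4 window holds TATAAA beginning 31 bases before the start and AGGTCA beginning 24 bases before it. The S100a5 window holds AGGTCA, on the opposite strand, past the start, and the S100a6 window holds none of these motifs. S100a16, the member with positive ratios on both arrays, has windows at 2 starts, shown because its pattern ran against its neighbours.
S100a16 first start, chr3:90537004-90537303, plus strand: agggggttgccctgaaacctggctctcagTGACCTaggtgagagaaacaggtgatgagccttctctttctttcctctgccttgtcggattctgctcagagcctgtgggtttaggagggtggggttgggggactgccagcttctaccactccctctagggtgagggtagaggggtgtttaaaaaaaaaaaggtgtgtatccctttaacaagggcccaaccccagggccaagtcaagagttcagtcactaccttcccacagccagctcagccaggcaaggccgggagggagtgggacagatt
S100a16 second start, chr3:90540896-90541195, plus strand: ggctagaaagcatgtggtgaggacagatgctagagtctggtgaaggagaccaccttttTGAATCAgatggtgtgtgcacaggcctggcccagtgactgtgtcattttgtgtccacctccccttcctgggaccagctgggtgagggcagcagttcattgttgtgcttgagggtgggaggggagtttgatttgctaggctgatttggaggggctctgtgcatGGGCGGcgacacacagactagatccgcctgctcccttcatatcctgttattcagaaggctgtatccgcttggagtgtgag
The first of these holds AGGTCA on the opposite strand, and the second holds GGGCGG and an AP-1 match, TGAATCA. S100a1 and S100a13 point away from each other with starts 105 bases apart, so that their windows share 204 bases; the S100a13 window is shown with the shared stretch in capitals.
S100a13, chr3:90514185-90514484, plus strand: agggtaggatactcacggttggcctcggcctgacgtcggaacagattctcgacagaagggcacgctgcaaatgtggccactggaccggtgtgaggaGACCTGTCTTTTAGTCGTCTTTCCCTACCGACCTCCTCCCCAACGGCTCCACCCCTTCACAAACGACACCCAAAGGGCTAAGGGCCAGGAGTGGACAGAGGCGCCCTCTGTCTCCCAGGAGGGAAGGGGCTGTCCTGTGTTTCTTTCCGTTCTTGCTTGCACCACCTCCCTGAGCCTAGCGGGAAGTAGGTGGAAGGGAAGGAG

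Windows were found for 8 of the 10 members, S100a14 and S100a10 being the others, and came to 12 because S100a16 and S100a3 have several starts. AGGTCA was in 6 of the 12 windows, those of S100a3, S100a4, S100a5, S100a11 and S100a16, against 16.3% of all 32851 windows of this length. TATAAA was in 2 (S100a3 and S100a4, 13.6% of all windows), GGGCGG in 3 (S100a3, S100a11 and S100a16, 35.7%) and TGANTCA in 2 (S100a11 and S100a16, 7.81%). The palindrome TTCNNNGAA, bound by STAT factors downstream of LIF, was in 0 of the 12 and in 8.30% of all windows. The direct repeat of the hexamer with 5 bases between its copies, which overlaps the hexamer counts, was in 0 and in 0.00913% of all windows. These are matches of letters only. The number of CpG dinucleotides per window was 2 for S100a4, 3 for S100a5 and 6 for S100a6, against a median of 7 over all windows. It was 2 and 4 for S100a16, 0 to 5 over the windows of S100a3, 11 for S100a1, 14 for S100a13 and 15 for S100a11.

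S100a4, also called metastasin, binds nonmuscle myosin and is the family's fibroblast marker. Its features read -1.97 and -1.93 in V6.5 cells and -2.63 and -2.64 in knockout cells. The gene means were -1.95, or 3.87-fold lower, and -2.63, or 6.21-fold lower. It ranked 30 from the bottom of 22485 genes in V6.5 and 7 from the bottom in the knockout. Were the ratios to run the other way, these would be its ranks from the top. Both features were lower in the knockout than either was in V6.5, by 0.68 on average.

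S100a6, or calcyclin, lies next but 1 to S100a4 in gene order. Its feature had a ratio of -1.04 in V6.5 cells and -1.01 in knockout cells, 2.05-fold and 2.01-fold lower. The arrays thus differed by 0.03 at this gene, where the median absolute difference over all genes was 0.13. S100a5, which sits between S100a4 and S100a6 and is known from olfactory neurons, had a ratio of 0.24 in V6.5 cells and -0.03 in knockout cells. The gene in the middle of this trio therefore stayed within 1.5-fold on both arrays while both of its flanks were at least 2-fold lower.

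The 6 genes below 0 in V6.5 other than S100a4 and S100a6, a group set after the values were seen, were closer to 0 in the knockout. S100a4, lower in the knockout, and S100a6, about the same on both arrays, were left out with their values known. That all 6 moved the same way therefore follows from how the group was set. S100a10 encodes the light chain that joins annexin A2 in a tetramer and has lost calcium binding. Its ratio was -1.25 in V6.5, or 2.37-fold lower, and -0.51 in the knockout, or 1.42-fold lower. S100a11, the S100 gene beside it and a partner of annexin A1, had -0.44 and -0.08. A pseudogene copy, S100a11-ps, whose RNA may share signal with the S100a11 feature, had -0.67 and -0.36, so the value of S100a11 is uncertain.

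S100a14, an epithelial member, had -1.02 in V6.5, or 2.03-fold lower, and -0.15 in the knockout. S100a1, a regulator of calcium release in muscle, was read by 2 features with -0.79 and -0.62 in V6.5 cells and -0.20 and -0.16 in knockout cells. S100a13, which shares its start region with S100a1 as shown by the window above and is known for its part in the release of Fgf1, had -0.54 and -0.02. The differences between arrays at these back-to-back genes were 0.53 and 0.52. S100a3, known from the hair cuticle, had -0.54 and -0.16.

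S100a16, a widely expressed member, had features at 0.63 and 0.78 in V6.5 and at 0.71 and 0.86 in the knockout. Its gene means of 0.70 and 0.78, or 1.63-fold and 1.72-fold higher, differed by 0.08, as did each feature. The median absolute difference between arrays was 0.13 over all genes. It lies between S100a14 and S100a3, which had ratios below 0 on both arrays.

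**Figure D1:**
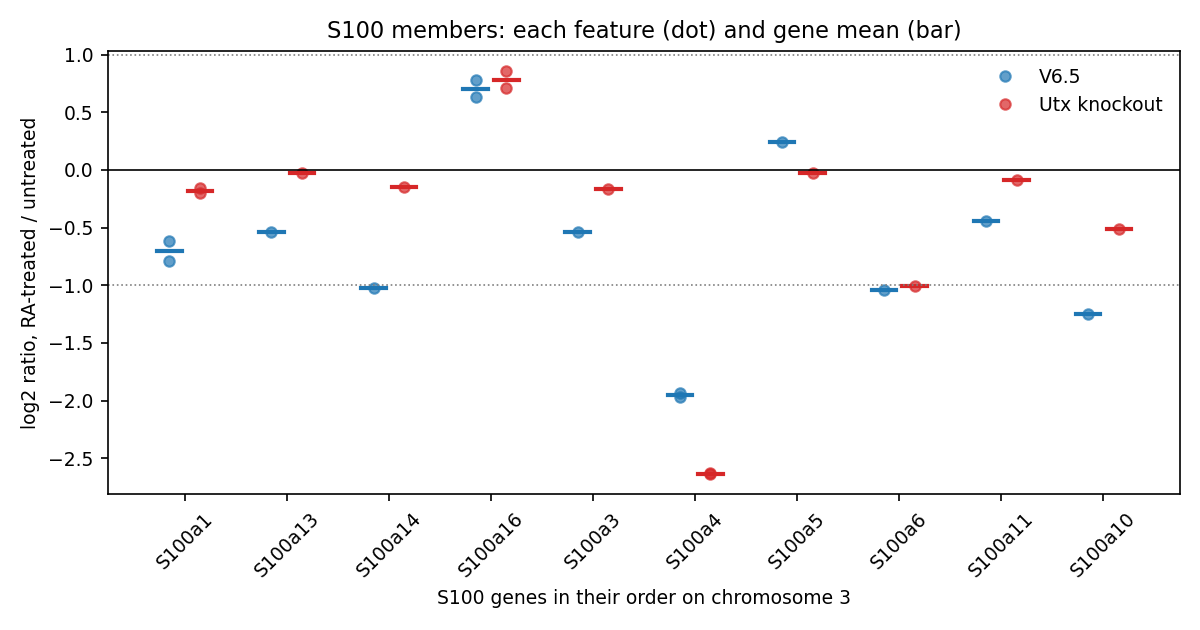
Log2 ratios (vertical axis, RA-treated over untreated) of the 10 S100 genes in their order along chromosome 3 (horizontal axis), with a dot for each array feature and a bar for the gene mean, V6.5 in blue and the Utx knockout in red; dotted lines mark 2-fold. S100a4 is lowest on both arrays (-1.95 and -2.63), S100a5 next to it lies at 0.24 and -0.03, and S100a16 lies above 0 on both.

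Over the 10 genes, the median ratio was -0.62 in V6.5 cells and -0.16 in knockout cells, against -0.02 and -0.02 over all genes. Ratios were below 0 for 8 of the 10 in V6.5 cells and for 9 in knockout cells, where 53.4% and 53.4% of all genes were. They were below 0 on both arrays for 8, against 41.2% of all genes. With arrays centred on their medians, S100a13 (0.01) and S100a5 (0.004) were just above 0 in knockout cells, which left 7 of the 10 below 0 there and 7 on both arrays, where 47.3% and 35.05% of all genes were. At least 1.5-fold, 5 genes were lower in V6.5 (S100a1 joining the 4 named above; 5.36% of all genes) and 2 in the knockout (5.06%), while S100a16 was higher on both (6.69% and 7.28% of all genes).

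The scatter of both arrays places the members among all genes. S100a4 and S100a6 lie along the line of equal ratios or below it. S100a10, S100a14 and S100a1 lie above it on the left, which is where genes fall that were lower in V6.5 and nearer to 0 in the knockout.

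**Figure D2:**
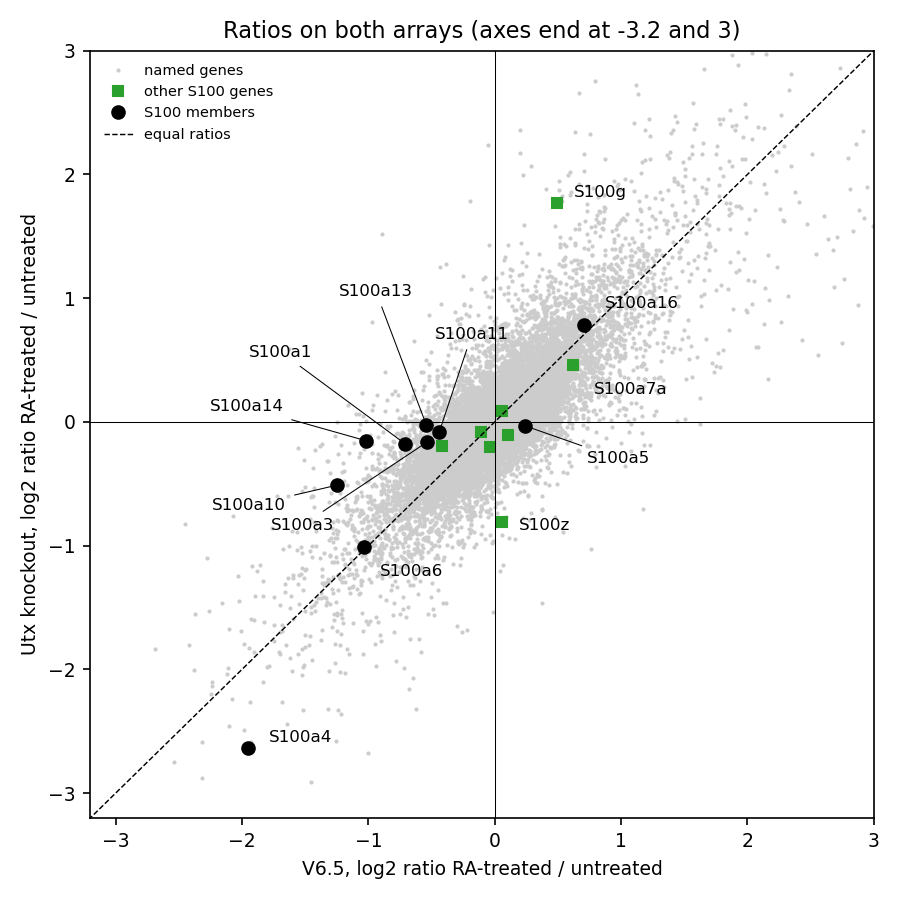
Log2 ratio in V6.5 (horizontal axis) against log2 ratio in the Utx knockout (vertical axis) for the named genes (grey; genes beyond the axes are not drawn), the 10 S100 members (black) and 8 other S100 genes (green); the dashed line marks equal ratios. S100a4 sits at the lower left (-1.95, -2.63), while S100a10 (-1.25, -0.51) and S100a14 (-1.02, -0.15) sit to the left of the bulk of genes.

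The design asks whether the response differs without Utx. The difference of log2 ratios, knockout minus V6.5, was positive for 8 of the 10 members, against 50.7% of all genes, and had a median of 0.37 against 0.00 over all genes. The members were chosen with these ratios known, and their median in V6.5 was -0.62 against -0.02 over all genes. All genes are therefore not a like comparison, and their values stand for scale only. It was 0.87 for S100a14, 0.74 for S100a10, 0.53 for S100a1, 0.52 for S100a13, 0.37 for S100a3 and 0.36 for S100a11. The lowest were S100a4 at -0.68 and S100a5 at -0.27.

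The central 95% of all genes had differences from -0.52 to 0.58. S100a14 and S100a10 lay above that range and S100a4 below it, while S100a1 and S100a13 were inside it near the upper end. Past 1.5-fold, S100a14 and S100a10 were higher in the knockout (2.5% of all genes) and S100a4 was lower (1.88%). Past 2-fold, 0 members differed in either direction, where 0.583% of all genes were higher and 0.467% lower. No difference between the arrays was tested, since each rests on 1 array per line.

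**Figure D3:**
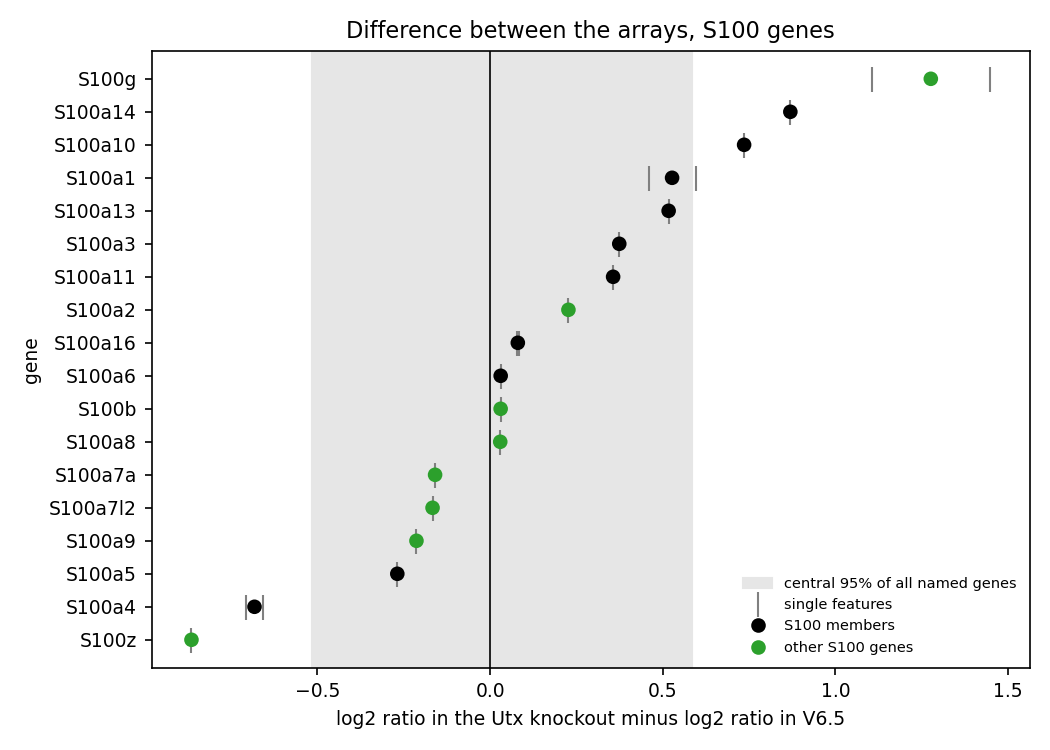
Difference of log2 ratios, Utx knockout minus V6.5 (horizontal axis), for each S100 gene (vertical axis): members in black, other S100 genes in green, single features as ticks, and the central 95% of all named genes as the grey band (-0.52 to 0.58). Among members, S100a14 and S100a10 lie to the right of the band and S100a4 to its left; of the other S100 genes, S100g (1.28) lies to the right and S100z (-0.86) to the left.

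The response shared by both arrays was tested over all genes with limma, an intercept over both ratios with Benjamini-Hochberg adjustment. It called 8.93% of genes as risen and 7.93% as fallen at an adjusted p under 0.05. The fit takes the lines as samples of a common response and, as both arrays carry the same dye orientation, a dye bias at a gene is part of its value. The fit is reported below for genes that are not members. Their lists were compiled by known biology, but with earlier results of these data known. Each ± gives the moderated SE of limma over the 2 arrays.

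Of the 8 other S100 genes on the array, 1 rose and 0 fell. S100a7a, a skin member of the same run, rose by 0.54 ± 0.08 (adjusted p = 0.0295, limma), a call lost when the test was made against 1.5-fold with treat. S100g, an intestinal calcium carrier encoded on the X chromosome, had ratios of 0.49 and 1.77 without passing (adjusted p = 0.0959). Its features read 0.41 and 0.58 in V6.5 cells and 1.51 and 2.03 in knockout cells, so every knockout feature was above every V6.5 feature. S100z, on another chromosome, had 0.06 and -0.81, and S100a2, between S100a3 and S100a4, had -0.42 and -0.19; neither passed. S100a8 (-0.11 and -0.08) and S100a9 (0.11 and -0.11), which together form calprotectin of neutrophils, S100b of glia (0.06 and 0.09) and S100a7l2 (-0.04 and -0.21) lay within 1.5-fold on both arrays. The list median was 0.06 in V6.5 cells and -0.10 in knockout cells.

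Of the 7 fused-type S100 genes, large proteins of skin and hair that begin with an S100 domain, 1 rose and 0 fell. Trichohyalin, Tchh, rose by 1.56 ± 0.10 (adjusted p = 0.00934, limma). The remaining 6 did not pass and included filaggrin, Flg, with 0.12 and 0.17 over 3 features, Hrnr with -0.17 and -0.06 and Crnn with -0.11 and -0.10. When features were fitted singly, the Flg feature with the lowest adjusted p passed, with a mean of 0.67. The median of the Flg features gave a mean of -0.09 and did not pass. The list median was 0.05 in V6.5 cells and 0.06 in knockout cells.

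Among 33 genes listed as binding partners of S100 proteins, 4 rose and 4 fell. Anxa2, the annexin that S100a10 binds, had -0.85 and -0.92 and fell by 0.88 ± 0.07 (adjusted p = 0.0122, limma). Ahnak, the giant scaffold protein tethered by the Anxa2 and S100a10 complex, fell by 0.77 ± 0.09 over 4 features (adjusted p = 0.0178). The ratios of Anxa2 thus differed by 0.06 between the arrays where those of S100a10 differed by 0.74. Anxa1, the partner of S100a11, had the lower ratio in the knockout where S100a11 had the higher, with -0.45 in V6.5 cells and -1.36 in knockout cells, and did not pass (adjusted p = 0.0806).

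Lgals3, the lectin galectin-3, had the lowest mean of the list and fell by 1.06 ± 0.08 (adjusted p = 0.0117). Sugt1, a co-chaperone bound by S100a6, also fell, with -0.40 and -0.34, while Cacybp, the calcyclin-binding protein, had -0.22 and -0.50 without passing (adjusted p = 0.0890). Syt1, a synaptic calcium sensor found with S100a13 in the Fgf1 release complex, rose by 0.77 ± 0.14 (adjusted p = 0.0425). Ryr2, the calcium release channel bound by S100a1, rose by 0.49 ± 0.09 (adjusted p = 0.0397), as did Nucb2, by 0.62 ± 0.09, and Mdm2, with 0.39 and 0.49. The receptor Tlr4 had -0.10 and -0.70 and did not pass. The list median was -0.03 in V6.5 cells and -0.09 in knockout cells, near those of all genes.

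Of 12 annexins, 1 rose and 3 fell, with list medians of -0.18 and -0.11. Besides Anxa2, Anxa8 fell by 0.93 ± 0.14 over 11 features (adjusted p = 0.0286, limma) and Anxa10 by 0.45 ± 0.07 (adjusted p = 0.0323). Anxa9 rose by 0.38 ± 0.08 (adjusted p = 0.0495), a call that was lost when features were fitted singly (adjusted p = 0.0517). Anxa3 (0.44 and 1.13) and Anxa7 (-0.53 and -0.33) did not pass, with adjusted p of 0.0645 and 0.0501 in limma. Anxa3 passed with arrays centred on their medians. Anxa7 passed with features summarised by their median, or by its feature with the lowest adjusted p when features were fitted singly. When the test was made against 1.5-fold with treat, 0 of the partners and 0 of the annexins passed.

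**Figure D4:**
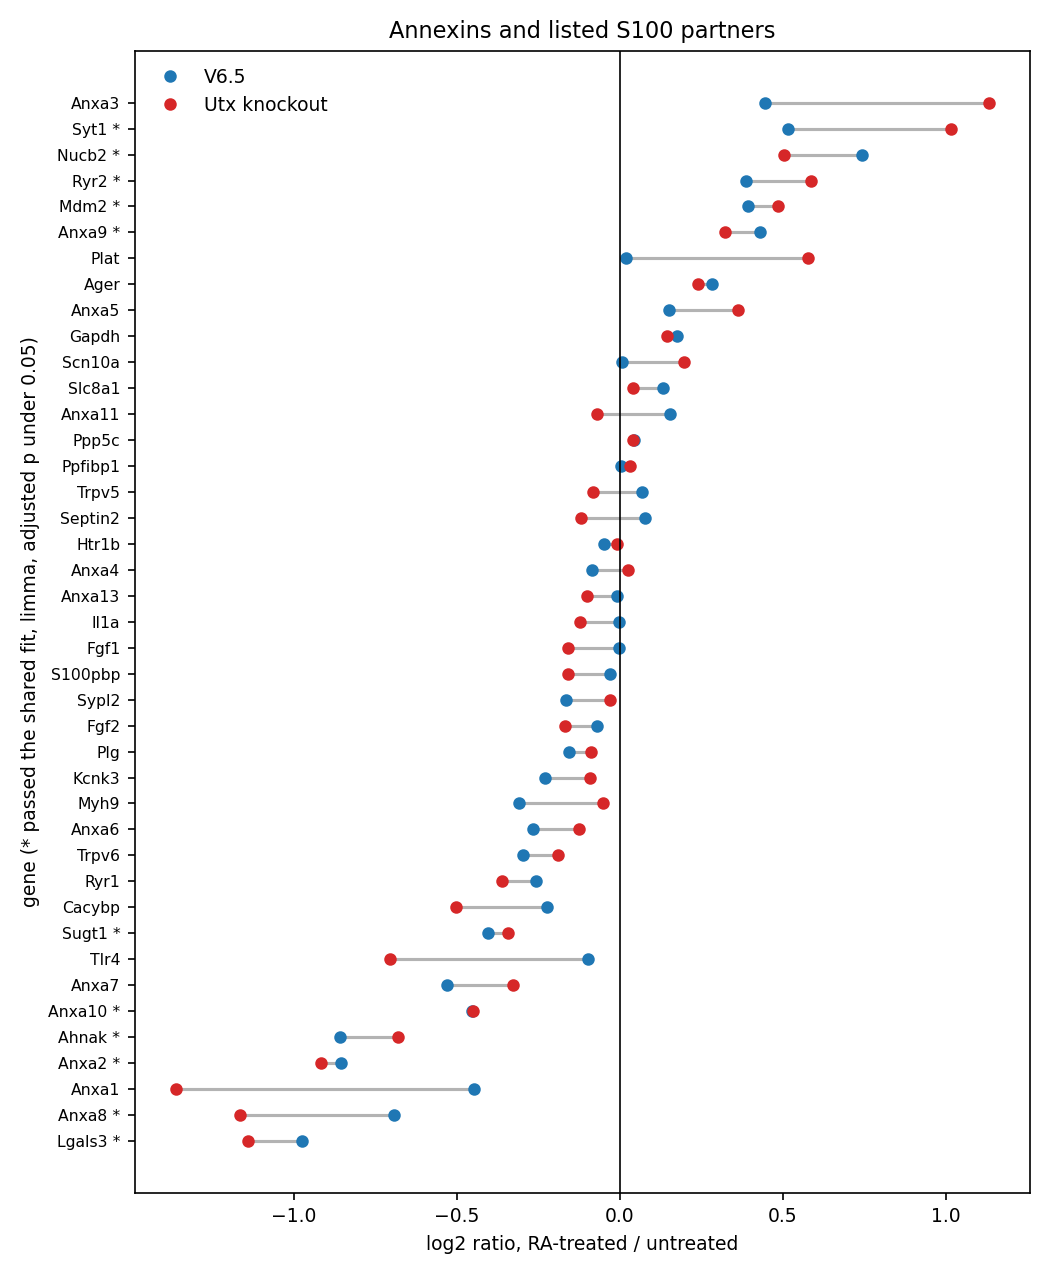
Log2 ratios (horizontal axis, RA-treated over untreated) of the annexins and the listed S100 partners (vertical axis, ordered by their mean), V6.5 in blue and the Utx knockout in red, with asterisks for genes that passed limma at an adjusted p under 0.05. Anxa2 and Ahnak lie below 0 with both dots close together, while the dots of Anxa1 (-0.45 and -1.36) are far apart.

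Of 15 measured protein-coding neighbours, taken as those among the 5 nearest genes on each side of a member, 2 rose and 0 fell, and the list median was 0.17 on both arrays. Ratios were below 0 for 4 of the 15 in V6.5 and for 3 without Utx, against 53.4% of all genes on each array. The neighbours include Tchh, given above, and 4 other fused-type genes. Tdpoz4, of a family expressed in early embryos and found near S100a10, rose by 0.49 ± 0.10 (adjusted p = 0.0441, limma). Its relatives Tdpoz2 (1.05 and 0.36) and Tdpoz3 (0.71 and 0.30) had positive ratios on both arrays without passing. When features were fitted singly, the Tdpoz3 feature with the lowest adjusted p passed. Tdpoz genes have near-identical copies whose probes may share signal. S100a10 (-1.25 and -0.51) thus had ratios of the opposite sign to those of the Tdpoz genes near it on both arrays.

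On the other flank, Npr1, a receptor for natriuretic peptides, had 0.71 in V6.5 cells and 2.02 in knockout cells and did not pass (adjusted p = 0.0700). Chtop, the gene next to S100a1, had 0.33 and 0.17. Ilf2 had -0.13 and -0.13, and Snapin 0.17 and 0.07. S100a1, with -0.71 and -0.18, was opposite in sign to Chtop on both arrays and alike in sign to Ilf2. In knockout cells, S100a1 and Chtop were both within 1.5-fold.

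Genes most like S100a4 and S100a16 were taken as the 5 with the smallest Euclidean distance over the 2 ratios. For S100a4 these were Serpina3i (-1.93 and -2.58), 1500009C09Rik (-1.98 and -2.49), Ephx2 (-2.10 and -2.46), the pluripotency factor Klf4 (-1.65 and -2.44) and Neurod1 (-2.31 and -2.59), at distances from 0.06 to 0.36. For S100a16 they were Elapor2, Mfsd13b, the BMP receptor Bmpr1a (0.70 and 0.80), Kcnt1 and Olfr485, at distances from 0.0080 to 0.022. With 2 arrays, such likeness says only that the ratios were close.

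Several members mark cell types, so marker lists are given beside them. Of 23 fibroblast genes, S100a4 left out, 11 fell and 1 rose, with list medians of -0.44 in V6.5 cells and -0.86 in knockout cells and ranges of -2.12 to 0.97 and -2.04 to 0.80. Lox fell by 2.08 ± 0.08 (adjusted p = 0.00597, limma), the mesenchymal filament gene Vim fell by 1.75 ± 0.14, the collagen gene Col1a2 fell by 1.47 ± 0.13 and Col3a1 fell by 1.34 ± 0.07. Thy1, a surface marker of fibroblasts, had -0.80 and -1.46 and fell, and the gene that rose was Ccn2 (0.97 and 0.80). The other 11 did not pass, and the list did not run alike. Col6a1 had -0.44 and -0.95, and passed with centring and with fits per feature. Dcn had -0.38 and -0.05, Pdgfrb 0.02 and 0.11, Twist1 -0.02 and 0.25, Twist2 0.41 and -0.13, and Fap 0.28 and -0.36. Ratios were below 0 for 17 of the 23 in V6.5 and for 20 without Utx, against 53.4% of all genes on each array. S100a4 and S100a6 were below 0 on both arrays, and the part of the fibroblast genes in their ratios was not tested.

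Of 15 epithelial genes, 1 rose and 2 fell, with list medians of -0.18 and 0.07 and ranges of -1.29 to 0.96 and -0.58 to 1.07. Knockout ratios were above V6.5 ratios for 12 of the 15, with a median difference of 0.59, against 50.7% and 0.00 over all genes. The claudin Cldn7 had -1.29 and -0.58 without passing, a call gained with 3 of the other settings. Cdh1 fell by 0.71 ± 0.11 over 10 features (adjusted p = 0.0297, limma), Cldn4 fell by 0.58 ± 0.11, and Trp63 rose by 0.76 ± 0.12 over 2 features. The Trp63 features were unlike: fitted singly, the feature with the lowest adjusted p had a mean of 1.44. The members of the list did not run alike: the splicing factor Esrp1 had -1.02 and 0.01 and Epcam -0.71 and 0.02, the keratins Krt8 (0.29 and 0.58), Krt18 (0.37 and 0.96) and Krt19 (0.25 and 1.07) were above 0 on both arrays, and Krt7 had -0.57 and 0.40. Of 15 genes of extra-embryonic endoderm, 0 rose and 2 fell, Lama1 by 0.86 ± 0.09 and Sparc by 0.75 ± 0.08, Dab2 (0.37 and 0.83) did not pass (it did with arrays centred on their medians), and knockout ratios were above V6.5 ratios for 12, with a median difference of 0.24. The part of either list in the differences of S100a10, S100a14 and the 4 genes next in size was not tested.

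Of 10 trophoblast genes, 3 rose, led by Gata3 at 2.56 ± 0.22 (adjusted p = 0.0126, limma), and Plet1 fell. The others that rose were Tfap2c (0.86 and 1.09) and Esx1 (0.59 and 0.38), and Ascl2 (-1.02 and -0.19) did not pass. Of 8 myeloid genes, 1 fell, Cd68, by 1.13 ± 0.07 (adjusted p = 0.00950, limma), and 0 rose. Cd14 (0.28 and 1.01) did not pass. Of 12 pluripotency genes, 4 fell and 0 rose: Klf4 by 2.05 ± 0.21, Tcl1 by 1.40 ± 0.07, Pou5f1 (-0.94 and -1.58) and Tfcp2l1. Tdgf1 (-0.68 and -2.16) did not pass. The list medians were -0.62 in V6.5 cells and -0.72 in knockout cells. Ratios were below 0 for 9 of the 12 in V6.5 and for 12 without Utx, against 53.4% of all genes on each array. Nanog (0.29), Dppa5a (0.16) and Klf2 (0.07) were above 0 in V6.5. Knockout ratios were lower than V6.5 ratios for 9 and higher for 3 (Sox2, Esrrb and Zfp42), where 50.7% of all genes were higher. S100a4 was below 0 on both arrays and lower in the knockout. The part of the pluripotency genes in the ratios of S100a4 was not tested.

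**Figure D5:**
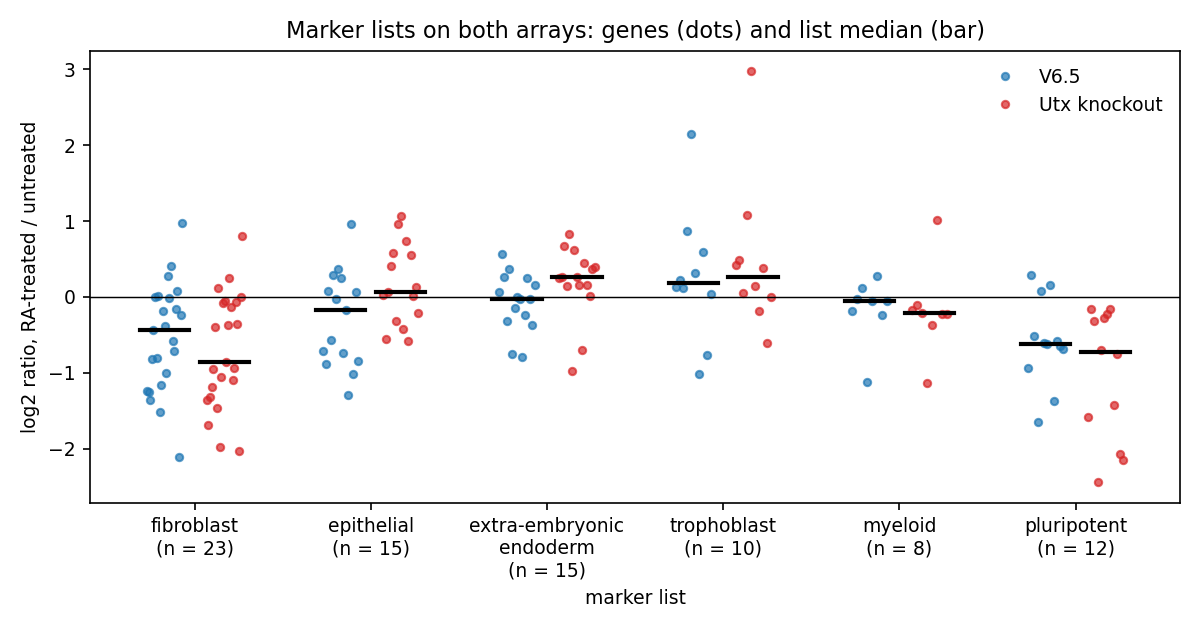
Log2 ratios (vertical axis, RA-treated over untreated) of the genes of 6 marker lists (horizontal axis), a dot for each gene and a black bar for the list median, V6.5 in blue and the Utx knockout in red. The fibroblast medians lie at -0.44 and -0.86, and the epithelial medians at -0.18 and 0.07.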

How the data were processed

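RNA of untreated and RA-treated cells shared an array, with 1 array per line. The authors deposited log-scale ratios for 44397 features, read here as log2 of treated over untreated from their range and the dyes, since neither base nor sign is stated. Of these features, 33026 carry 1 gene symbol in the platform annotation. The submitters' processing notes name limma, giving neither its version nor what it did. For background correction and within-array normalization, the method is not given in the sources used here. Both columns average 0, with medians of -0.03 for V6.5 and -0.03 for the knockout. Features of a gene were averaged. Members, lists, motifs and tests were chosen with earlier results of these data known. The shared response was fitted with limma 3.58.1 in R 4.3.3 (lmFit and eBayes, two-sided, Benjamini-Hochberg over 22485 genes, 1 residual and 2.98 prior degrees of freedom). The fit was also run on simulated data with the same noise spread for every gene and no dye effect, which does not check the calls made here. The p-values of the fit measure only the spread between these 2 arrays. The text names all S100 genes and, of each further list except the marker lists, up to 6 genes that passed and 3 that did not, by size of mean. For each marker list, fewer were taken by the same order. Other genes named, among them further marker genes and Mdm2, Sugt1, Chtop, Ilf2 and Snapin, were chosen after their values were seen. Python 3.11.15 with pandas 2.3.3 and matplotlib 3.10.9 did the rest. Alternatives were the median of features, centring on the array median, scaling the knockout by the slope between arrays, 1.5-fold counts, robust eBayes, treat and fits per feature. In fits per feature, a gene was taken by its feature with the lowest adjusted p.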

Additional observations from a re-analysis of the deposited data

Results flagged for a closer look

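S100a5, S100a9 and S100z had ratios of opposite sign on the arrays, each line having 1 array. S100a5 had 0.24 in V6.5 cells and -0.03 in knockout cells, a difference of -0.27. S100a9 had 0.11 and -0.11, a difference of -0.21. S100z had 0.06 and -0.81, a difference of -0.86. With arrays centred on their medians, S100a5 had 0.27 and 0.004, so that its ratios no longer differed in sign, while those of S100a9 (0.14 and -0.07) and S100z (0.09 and -0.77) did. None of these differences was tested.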

How the results depend on the processing

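With arrays centred on their medians or with knockout ratios divided by the slope of 1.05 between the arrays, 1 member instead of 2 was at least 2-fold lower in the knockout, since S100a6 stood at -1.01. Centring left 3 instead of 4 in V6.5. Counted past 1.5-fold, 1 member was higher in V6.5 cells and 1 in knockout cells, and the difference was lower for 1 and higher for 2. With treat against 1.5-fold, 196 genes rose and 97 fell over all genes, instead of 2009 and 1784, and 2 and 5 of the 189 listed genes, instead of 20 and 31. By list, treat left 4 fibroblast genes, 1 pluripotency gene, 1 trophoblast gene and Tchh. Totals over all genes and over the listed genes stayed within 1.5 times of those reported under the median of features, centring, robust eBayes and fits per feature. Single lists moved more: with fits per feature, 4 neighbours, 2 fused-type genes, 0 annexins and 1 gene of extra-embryonic endoderm rose, and with centring, 2 annexins, 2 epithelial genes and 1 gene of extra-embryonic endoderm rose. No paired analysis was possible because each line has 1 array. Leaving out an array leaves no residual degree of freedom. The number of arrays and the unknown signal over background limit the precision, and 7 members rest on 1 feature.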

Other observations

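Of 40 measured genes of other small EF-hand proteins, 7 rose and 4 fell in the shared fit, where 8.93% and 7.93% of all genes did. The list medians were 0.08 in V6.5 cells and -0.02 in knockout cells. With treat against 1.5-fold, 0 rose and 0 fell. Gca, or grancalcin, rose by 1.14 ± 0.09 (adjusted p = 0.0119, limma) and Kcnip3, a calcium-sensing channel partner and transcriptional repressor, by 0.79 ± 0.07 (adjusted p = 0.0141). Kcnip3 had 2 unlike features: fitted singly, the feature with the lowest adjusted p had a mean of 1.38. Kcnip2, a relative of Kcnip3, fell by 1.43 ± 0.11 (adjusted p = 0.0116), Calml4 by 0.88 ± 0.07, and Cabp1 by 0.81 ± 0.07 with -0.82 and -0.79. Tesc, or tescalcin, fell by 1.34 ± 0.23 (adjusted p = 0.0361), with -0.90 in V6.5 cells and -1.77 in knockout cells. Sri (0.15 and 0.58), Lcp1 (0.26 and 0.59) and Aif1 (0.32 and 0.25) did not pass. When features were fitted singly, the Lcp1 feature with the lowest adjusted p passed.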
